A study of Mus musculus with 5 samples.

Results

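The recovery of the mouse kidney after ischaemia-reperfusion injury (IRI) was followed from 96 h to 28 d by setting the nuclei of 2 single-nucleus RNA libraries side by side. All nuclei with at least 200 detected genes were taken. There were 3202 in the 96 h library, where 306 of 3508 barcodes held fewer genes, and 3299 in the 28 d library, where none did, 6501 of the 16359 nuclei in the 5 libraries of the study. Both libraries came from male mice, 10 to 12 weeks old, with 3 transgenes: Six2-TGC, Rosa26rtTA and, as the reporter itself, pTRE-H2BeGFP. They had eaten food with doxycycline (625 mg/kg) since soon after birth. In these mice doxycycline switches on a green fluorescent histone in cells descended from Six2-expressing nephron progenitors, so the GFP-positive sort takes nephron nuclei and leaves out most collecting duct, vascular and immune nuclei. Both renal pedicles of the mice were clamped and released. GFP-positive libraries from kidneys without injury and from 64 h after IRI carry the same transgenes and diet, and their values are given beside the comparison. The labels do not say whether the animals without injury were operated on, nor how many animals went into a library.

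IRI starves the tubule of oxygen and then returns it, and the proximal tubule, which reabsorbs most of the filtered solute, is the segment best known to suffer. Surviving cells lose part of their transport programme, switch on injury genes such as Havcr1 (kidney injury molecule 1), spread and divide, and later regain their polarity and transporters. Some cells are known to stay in an injured state marked by Vcam1, with inflammatory and profibrotic signals. Serum creatinine, a waste product that rises when filtration fails, is given in the labels as 0.312 mg/dL for the 96 h group. For the 28 d group it is 0.144 mg/dL, and 0.122 mg/dL without injury. Blood urea nitrogen, another such product, is given as 91.8, 31.7 and 26.1 mg/dL for the same groups.

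Values are counts of unique molecular identifiers (UMIs, one per captured RNA molecule), summed over the nuclei of a group in a library and expressed as counts per 1000000 UMIs of that group (CPM). A ratio is the 28 d level over the 96 h level with its exact 95% interval. There was 1 library a side, so the intervals cover counting error only and no test between times was possible. A gene was measured where both libraries together held at least 50 UMIs, or at least 20 in the smaller groups of nuclei, and it is said to have risen or fallen where its level differed at least 2-fold. The 28 d library was deeper, with 3767530 UMIs and a median of 982 per nucleus against 1856284 and 507 at 96 h. Mitochondrially encoded UMIs were 0.0947% of the total at 28 d and 0.0483% at 96 h. The libraries shared 15 barcodes, within the 9 to 20 shared by any pair in the study. No doublet caller was used.

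Most nuclei in both libraries belonged to clusters with their highest marker score for the proximal tubule (PT), here called PT-like. They made up 74.1% of nuclei at 96 h (72.5 to 75.6%, exact binomial interval) and 67.7% at 28 d (66.1 to 69.3%). The 16 PT markers summed to 16987 CPM at 96 h and 27324 CPM at 28 d in these nuclei, against 2031 and 3522 CPM in thick ascending limb-like nuclei. The name rests less firmly on the largest 96 h cluster, whose PT score (1.6) was the lowest of the PT-like clusters (up to 2.46). It has no PT marker among its 10 leading genes, nor have the PT-like clusters led by Hdc, Cyp2a5 and Cyp7b1. The nuclei were not spread over the same PT-like clusters. At 96 h, 1867 of the 2372 PT-like nuclei lay in a cluster led by Fgg, C3 and Brca2, which held 152 of 2234 at 28 d. At 28 d the largest were clusters led by Hdc and Col27a1 (823 nuclei, 193 at 96 h), by genes that include Gldc and Slc5a2 (582 nuclei, 20 at 96 h) and by Slco1a1 (272 nuclei, 1 at 96 h). With coarser clustering the 96 h cluster no longer counted as PT-like, and the PT-like shares became 16.1% and 63.1%, so the order of these shares depends on how that cluster is named.

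Thick ascending limb (TAL)-like nuclei were 11.9% of the library at 96 h and 7.70% at 28 d. Their clusters also changed places. A cluster led by Slc12a1 and Egf, the genes of the salt transporter and growth factor of this segment, held 14 nuclei at 96 h and 113 at 28 d, and one led by Lcn2 and Clu, both injury genes, held 367 and 141. When nuclei were classed one by one from their own marker UMIs, the TAL-like shares were 4.65% and 6.94%, the opposite order. Thin limb-like nuclei were 3.62% and 3.91%, and connecting tubule-like nuclei 2.00% and 2.88%. Distal convoluted tubule-like nuclei numbered 2 at 96 h and 48 at 28 d. Endothelium-like nuclei numbered 2 and 65, fibroblast- and mural-like 2 and 29, and macrophage- and dendritic-like 4 and 35. Of the 65 endothelium-like nuclei, 53 lay in a deep cluster with a second score for PT markers. A further cluster, led by Slc12a1 and other TAL genes and with a second score for PT markers, stayed unnamed, with 5 and 89 nuclei. When nuclei were classed by their own marker UMIs, these differences shrank or turned: distal convoluted tubule-like nuclei numbered 66 and 38, endothelium-like 5 and 8, fibroblast- and mural-like 2 and 1, and macrophage- and dendritic-like 3 and 6, while 397 and 105 nuclei stayed unnamed. A cluster led by injury genes, among them Vcam1, Havcr1, Cd44, Krt20 and Csf1, had no marker of a segment among its 10 leading genes. These injury-led nuclei were 7.06% at 96 h (6.19 to 8.00%) and 7.82% at 28 d (6.93 to 8.79%), against 1.60% without injury and 6.71% at 64 h. The share depended on the clustering: it was 65.1% and 11.9% at resolution 0.5, which draws in the largest 96 h cluster, and 20.2% and 3.49% at resolution 2.0. At 2.0 a cluster led by Gm17268 and Vcam1, with 50 and 285 nuclei, was named for another marker class, parietal epithelium, and is left out. A cluster led by Clu and Lcn2, with 302 and 83 nuclei, is counted in.

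**Figure D1:**
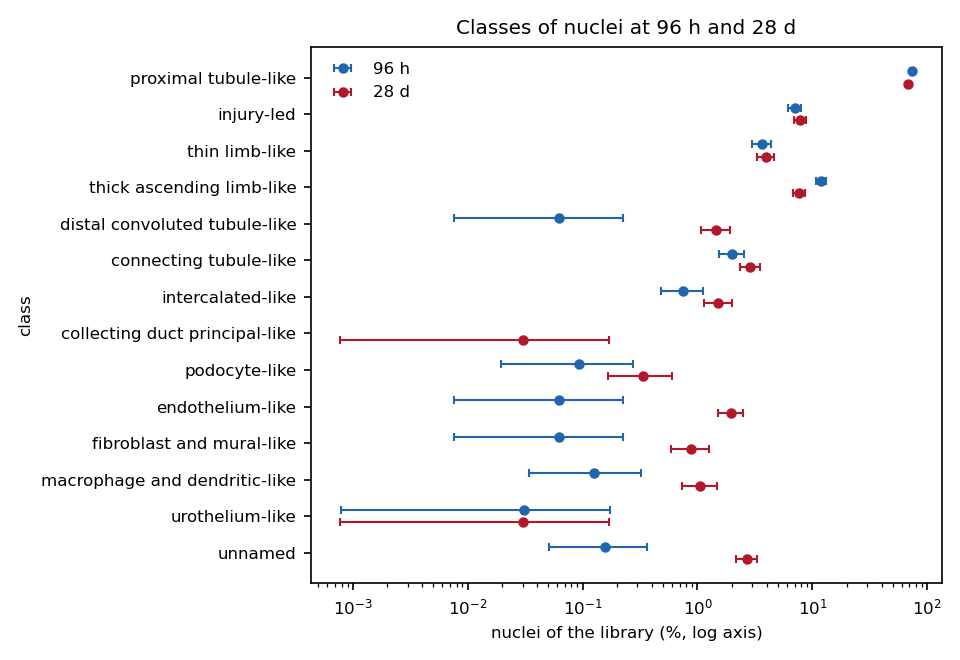
Share of nuclei in each class at 96 h and 28 d (percent of the library, log axis), with exact 95% binomial bars and 1 library per time. A class with 0 nuclei at a time is not drawn. The injury-led class sits at 7.06% and 7.82% with overlapping intervals, while distal convoluted tubule-, endothelium-, fibroblast- and macrophage-like nuclei go from 2 to 4 nuclei to 29 to 65 in these clusters, but not when nuclei are classed by their own marker UMIs (66 and 38, 5 and 8, 2 and 1, and 3 and 6).

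Over all nuclei, 357 of 9818 measured genes rose (3.64%) and 1145 (11.7%) fell. With the scaling by trimmed mean of M values (TMM), which assumes that most genes do not change, 662 rose and 663 fell, so that both directions were nearly equal in number, where risers were 23.8% of the calls without it. Among the genes that lead this comparison but not the PT-like one were Egf of the TAL (100 to 499 CPM), the injury gene Lcn2 (52.8 to 3.45 CPM) and Fgb, the beta chain of fibrinogen (49 UMIs and 1 UMI). Since the classes of nuclei differ in share between the libraries, the classes are compared with themselves below.

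In PT-like nuclei, genes of injury, inflammation, the cytoskeleton and protein synthesis were lower at 28 d than at 96 h, and genes of detoxification and androgen response were higher, while transporters moved in both directions. Of 8145 measured genes 297 (3.65%) rose and 1033 (12.7%) fell, and the median log2 ratio of all measured genes was -0.18. The balance depended on scaling. With TMM scaling, which shifts every PT-like log2 ratio up by 0.31, 642 rose and 553 fell, so that risers were 53.7% of the calls against 22.3% without it. Lists are therefore read below against the median of all genes, and a list's count under TMM is given where it differs by more than 1.5 times. Besides the leading genes, 159 members of the lists passed 2-fold in PT-like nuclei. A shift of 0.31 cannot turn the direction of a gene past 2-fold, so only their size is informative under TMM scaling. With it 116 of the 159 had a log2 ratio (on CPM + 1) of at least 1 in size. Among those named below that did not were Abcc4 (-0.94), Slc13a3 (-0.95), Slc6a18, Acadl and Hsd17b4 (-0.89 each), Jund (-0.81), Col4a1 (-0.85), Col4a2 (-0.78) and Ctsb (-0.73).

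**Figure D2:**
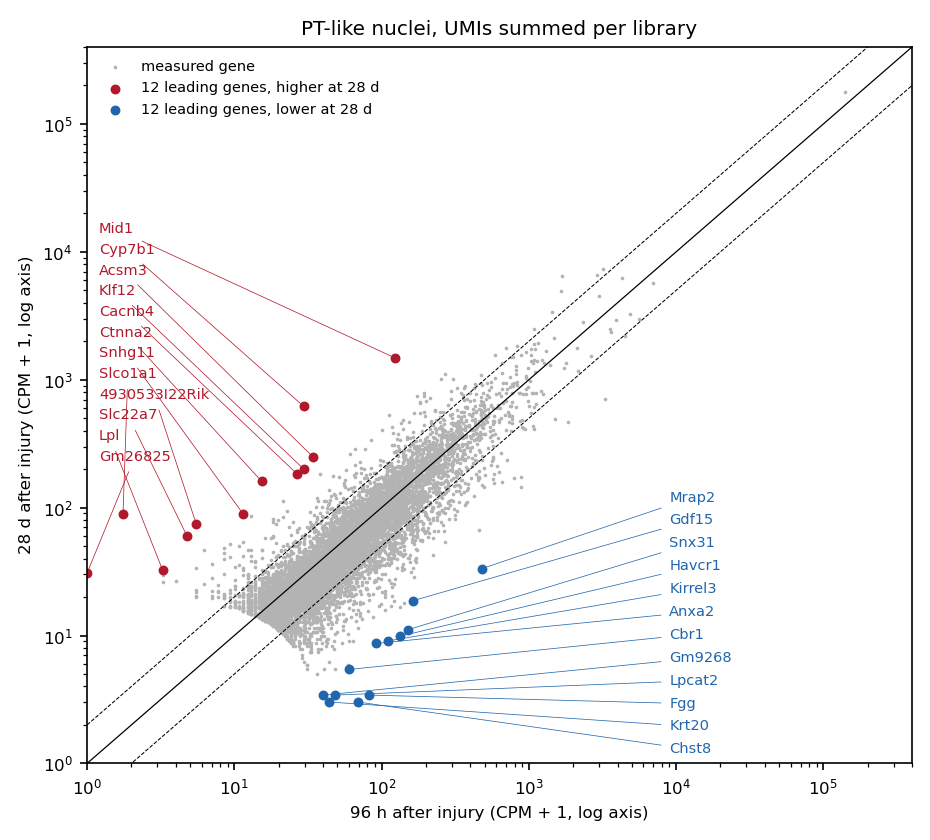
Level of each measured gene in PT-like nuclei at 96 h (x axis) and 28 d (y axis), as CPM + 1 on log axes, with 1 library per time. The solid line marks equal levels and the dashed lines 2-fold. The 12 leading genes in each direction are named, from Slco1a1 (0.753 and 87.5 CPM) to Gdf15 (162 and 17.7 CPM).

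The injury programme was the clearest group to fall. All 10 measured members of the tubule injury list fell, with a median log2 ratio of -2.37. Havcr1, a receptor with which tubule cells clear dead neighbours, was at 132 CPM at 96 h (114 to 154, exact Poisson interval) and 8.87 CPM at 28 d (5.56 to 13.4), a ratio of 0.0669 (0.0409 to 0.105). Its level was 4.08 CPM without injury and 38.8 CPM at 64 h, so the 28 d value lay between those. Krt20, a keratin of stressed tubules, was at 42.9 CPM and 2.02 CPM, with 2.24 CPM without injury. Spp1, which encodes the matrix protein osteopontin, went from 788 to 171 CPM (ratio 0.217, 0.194 to 0.244) and stayed above the 86.5 CPM found without injury. Gdf15, a stress-induced hormone of the TGF-beta family, went from 162 to 17.7 CPM. Cdkn1a, the cell cycle inhibitor p21, went from 52.7 to 7.66 CPM and Plin2, a coat protein of lipid droplets, from 170 to 36.3 CPM.

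These falls did not rest on the large 96 h cluster alone. Without it, 505 PT-like nuclei were left at 96 h and 2082 at 28 d, and all 6 injury genes that could still be measured fell, with a median log2 ratio of -1.88. Of the 159 list members past 2-fold, 158 kept their direction without it and 112 a size of at least 1. Those named here that did not, beside the genes of the early segment, were Cxcl1 (-0.92), Col4a2 (-0.85), Slc6a18 (-0.83), Ctsb (-0.69), Jund (-0.55), Hnf4g (0.95), Dab2 (0.89), Acsm2 (0.68), Ehhadh (0.57) and Dusp1 (0.57). This alternative, like the other groups of nuclei described after TAL, was chosen after seeing the data. With each nucleus thinned to 300 UMIs, Havcr1 was found in 3.73% of PT-like nuclei at 96 h (82 of 2196) and in 0.134% at 28 d (3 of 2234). Unthinned, the shares were 6.24% and 0.895%. In connecting tubule-, intercalated- and collecting duct-like nuclei, which should lack it, the thinned shares were 1.23% of 81 and 0.685% of 146, with median depths of 433 and 1043 UMIs against 509 and 988 in PT-like nuclei. The 1 positive background nucleus at each time gives wide intervals, 0.0313 to 6.69% at 96 h and 0.0173 to 3.76% at 28 d, so neither PT-like share could be told from background by these nuclei. Spp1, thinned in the same way, was found in 19.4% of PT-like nuclei at 96 h and in 4.66% at 28 d. In the background nuclei its shares were 25.9% and 7.53%, higher at both times and also lower at 28 d. The part of free or shared transcripts in the PT-like fall of Spp1 was not tested.

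The fibrinogen and complement genes are a hallmark of the liver's acute phase and are also switched on in injured tubules. All 5 measured members fell. Fgg, the gamma chain of fibrinogen, was at 81.3 CPM at 96 h (66.7 to 98.2) and 2.42 CPM at 28 d (0.888 to 5.26), 33.6-fold lower (14.9 to 93.6), against 0.408 CPM without injury. C3, the central complement protein, went from 104 to 14.9 CPM, Cfb, its activating protease, from 87.3 to 33.5 CPM, and C4b from 145 to 57.2 CPM. C3, C4b and Cfb had each been lower at 64 h (9.38, 29.8 and 25.1 CPM) than at 96 h. C3 and C4b at 28 d were still above their levels without injury, 4.08 and 23.7 CPM.

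Inflammatory signalling fell with them. Of 13 measured genes of NF-kB and STAT3 signalling, which relay cytokine and stress signals to the nucleus, 8 fell and none rose (median log2 ratio -1.36). Relb, an NF-kB subunit, went from 39.9 to 8.87 CPM, Bcl3, a nuclear cofactor of NF-kB, from 63.2 to 8.06 CPM, and Stat3 from 447 to 173 CPM. Of 10 AP-1 and other immediate early factors 8 fell, among them Junb (53.5 to 10.1 CPM) and Fosl2 (28.6 to 5.24 CPM), while Dusp1, a phosphatase that ends kinase signals, rose from 25.6 to 53.2 CPM. With TMM scaling 5 of these 10 fell. Among 8 measured cytokines, chemokines and adhesion molecules 4 fell and 1 rose. Icam1, which tethers leukocytes, went from 164 to 27.8 CPM, Csf1, the macrophage growth factor, from 58.0 to 9.27 CPM and Cxcl1, which draws neutrophils, from 187 to 67.3 CPM. Il34, a second ligand of the Csf1 receptor, was at 386 and 201 CPM (ratio 0.520, 0.459 to 0.589), with 81.4 CPM without injury. Il15, a cytokine of the kidney epithelium, went the other way, from 60.2 to 263 CPM, with 184 CPM without injury.

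These 3 lists leaned on the large 96 h cluster. Without it, 3 of 7 NF-kB and STAT3 genes (median -0.34), 2 of 6 immediate early factors (median -0.48) and 1 of 5 cytokine genes (median -0.58) fell. The 10 macrophage and dendritic markers summed to 179 CPM in PT-like nuclei at 96 h and 127 CPM at 28 d, with Ptprc, C1qa and Lyz2 at 0 UMIs at 96 h, and the 5 neutrophil markers summed to 6.78 and 2.42 CPM.

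Of 18 cytoskeleton genes 12 fell and none rose, with a median log2 ratio of -1.24. Anxa2, a membrane and actin binding annexin, went from 90.3 to 7.66 CPM, Tmsb10, which binds free actin, from 132 to 15.7 CPM, and Actb, cytoplasmic actin, from 423 to 122 CPM. Actb and Tmsb10 remained above their levels without injury, 49.1 and 4.28 CPM. Of 13 profibrotic ligands and matrix genes 7 fell (4 with TMM scaling), among them Pdgfb, a growth factor for mesenchymal cells, from 86.6 to 20.2 CPM, and Col4a1 and Col4a2, which form basement membrane collagen. Itgb6 and Itgav, whose products together activate TGF-beta, gave ratios of 0.790 (0.709 to 0.881) and 0.671 (0.587 to 0.768), inside the 2-fold limit. Of 6 measured cell cycle genes 3 fell (1 with TMM scaling). Brca2, a DNA repair gene expressed in dividing cells, accounted for most of their summed level at 96 h and went from 455 to 65.3 CPM, with 86.0 CPM at 64 h and 28.3 CPM without injury. It is also one of the leading genes of the large 96 h cluster.

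Redox and iron genes fell unevenly. Of 17 genes of glutathione metabolism and the NRF2 response 8 fell (5 with TMM scaling), among them Srxn1, which repairs oxidised peroxiredoxin, from 35.4 to 4.03 CPM, and Gpx4, which removes lipid peroxides, from 607 to 211 CPM. Gclc, which makes the rate-limiting step of glutathione synthesis, was at 1057 and 782 CPM. The ferritin genes Fth1 and Ftl1, whose products store iron, went from 3278 to 704 CPM and from 1847 to 464 CPM. Both were then below their levels without injury, 1536 and 1022 CPM. Mt2 and Mt1, metal-binding metallothioneins, went from 70.0 to 13.3 and from 115 to 35.9 CPM, and Hmox1, which breaks down haem, from 67.8 to 14.9 CPM. Slc39a8, a zinc and iron importer, rose from 7.53 to 19.4 CPM.

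Genes of the mature proximal tubule moved the other way. Of 26 measured cytochrome P450 and conjugation genes 10 rose and none fell, with a median log2 ratio of 0.85, and the list summed to 5770 CPM at 96 h and 10613 CPM at 28 d (9521 CPM without injury). With TMM scaling 15 rose. Cyp7b1, a sterol hydroxylase of the late (S3) segment, was at 28.6 CPM at 96 h (20.2 to 39.3) and 618 CPM at 28 d (588 to 650), a ratio of 21.6 (15.7 to 30.7). Its level was 538 CPM without injury and 5.36 CPM at 64 h. Acsm3, a mitochondrial medium-chain acyl-CoA synthetase, went from 33.1 to 249 CPM, and Acsm2, its more abundant relative, from 1438 to 3357 CPM. The glucuronosyltransferase-family genes Ugt2b38, Ugt3a1 and Ugt3a2 rose 3.71-, 4.43- and 2.92-fold. Several of these genes have close paralogs, between which short 3' reads may be split uncertainly.

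Among 24 organic ion and drug transporters 6 rose and 1 fell. Slco1a1, an organic anion transporter of the male kidney, had 1 UMI at 96 h and 217 UMIs at 28 d (0.753 and 87.5 CPM, ratio 116, 20.6 to 4611), with 65.7 CPM without injury. Slc22a7, another anion transporter, went from 3.76 to 59.3 CPM, with 71.2 CPM without injury. Slc22a30, Slc22a28 and Slc22a19 rose 3.39-, 2.75- and 5.47-fold. Slc22a6, the main basolateral importer of organic anions, did not share this course, at 184 CPM at 96 h and 106 CPM at 28 d. Abcc4, an efflux pump, fell from 70.8 to 29.4 CPM. Of 8 androgen-responsive kidney genes 4 rose and none fell. Kap, the kidney androgen-regulated protein and the most abundant of them, went from 254 to 1018 CPM (1091 CPM without injury), while Odc1, which makes polyamines, was at 138 and 135 CPM.

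Segment markers returned in part. Of 11 genes of the late segment 3 rose, Cyp7b1, Slc22a30 and the amino acid transporter Slc7a13 (193 to 792 CPM, 974 without injury), and the list's median log2 ratio was 0.20. Of 10 genes of the early (S1) segment 4 rose and none fell, with a median of 0.75. They were Slc34a3, a phosphate transporter (7.53 to 43.1 CPM), Slc6a19, the neutral amino acid transporter (139 to 408 CPM), Gatm, of creatine synthesis (228 to 583 CPM), and Slc5a12, a lactate transporter (702 to 1775 CPM). Slc5a2, the glucose transporter SGLT2, was at 188 and 306 CPM. The S1 result turned on the large 96 h cluster: without it 1 of the 10 rose and the median was -0.19, and at the coarser clustering, which leaves that cluster out, the median was -0.12. The late segment, P450 and androgen-responsive lists kept positive medians without it (0.30, 0.78 and 1.30). Of the 4 risers, the log2 ratio without that cluster was 0.99 for Slc34a3, 0.66 for Slc6a19, 0.20 for Slc5a12 and 0.08 for Gatm.

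The rise of PT transcripts was also seen in nuclei of other segments. The 16 PT markers summed to 16987 CPM at 96 h and 27324 CPM at 28 d in PT-like nuclei, and to 2705 and 13502 CPM in connecting tubule- and intercalated-like nuclei. At 300 UMIs per nucleus, Slc34a1, the main phosphate transporter, was found in 46.9% and 71.4% of PT-like nuclei, and in 13.6% and 41.1% of connecting tubule-, intercalated- and collecting duct-like nuclei. Unthinned, the PT-like shares were 58.8% and 94.2%. Slc7a13 was found in 4.55% and 15.6% of PT-like nuclei and in 0% (0 of 81) and 10.3% of the other nuclei. PT transcripts outside the proximal tubule were thus more frequent at 28 d, and their part in the PT-like rise was not tested. Slco1a1 went from 0 of 2196 to 47 of 2234 PT-like nuclei, and was found in 0 of 81 and 1 of 146 of the other nuclei.

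Of 16 measured transcription factors of the proximal tubule 3 rose and none fell. Nr1h4, the bile acid receptor FXR, went from 365 to 894 CPM (889 without injury), Hnf4g from 125 to 275 CPM and Klf15, a metabolic regulator, from 34.6 to 76.6 CPM. Hnf4a, the master regulator of the segment, was at 243 and 310 CPM (ratio 1.27, 1.12 to 1.45), and Ppara, which drives fatty acid oxidation, at 580 and 516 CPM. Klf12, a repressor-type factor outside that list, rose from 28.6 to 199 CPM, with 269 CPM without injury. Of 12 endocytosis genes 1 rose and 1 fell: Dab2, the adaptor of megalin, went from 2898 to 6626 CPM (5886 without injury) and the lysosomal protease Ctsb from 154 to 74.6 CPM. The receptors Lrp2 (megalin) and Cubn (cubilin) gave ratios of 1.77 (1.67 to 1.88) and 1.92 (1.73 to 2.12). With TMM scaling 3 of the 12 rose.

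Not every transporter was higher at 28 d. Slc20a1, a housekeeping phosphate transporter, fell from 503 to 178 CPM (154 without injury), Slc13a3, a dicarboxylate transporter, from 642 to 268 CPM (181 without injury) and Slc13a2 from 194 to 64.5 CPM. Slc6a18, a glycine transporter, fell from 944 to 412 CPM, and Slc38a3, the glutamine importer used for ammonia production, from 132 to 48.0 CPM (29.4 without injury). Slc13a1, a sulfate transporter and one of the most abundant transcripts, was at 4879 and 3286 CPM.

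Energy metabolism lists had different medians, while few of their members passed 2-fold. The median log2 ratio was -1.0 for glycolysis, -0.76 for the pentose phosphate pathway and -0.52 for the nuclear-encoded respiratory chain. It was 0.45 for gluconeogenesis and -0.16 for both fatty acid oxidation and the citric acid cycle, against -0.18 for all genes. The counts below stand beside 3.65% of all measured PT-like genes that rose and 12.7% that fell. Of 9 glycolysis genes 5 fell and none rose (2 fell with TMM scaling), among them Gapdh (40.7 to 7.26 CPM) and Ldha, which makes lactate (142 to 54.8 CPM). Of 6 pentose phosphate genes 2 fell, Pgd (163 to 58.5 CPM) and Tkt (291 to 104 CPM). Of 7 gluconeogenesis genes none passed 2-fold (2 rose with TMM scaling), and the rate-limiting Pck1 was at 259 and 353 CPM. Of 25 fatty acid oxidation genes 2 rose and 2 fell. Ehhadh and Acot12 of the peroxisome and cytosol rose 2.43- and 2.81-fold, and Acadl and Hsd17b4 fell to 0.432 and 0.434 of their 96 h levels. With TMM scaling 4 of them rose and none fell. None of 23 citric acid cycle genes changed 2-fold. Of 26 nuclear-encoded respiratory chain genes 5 fell (0 with TMM scaling).

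**Figure D3:**
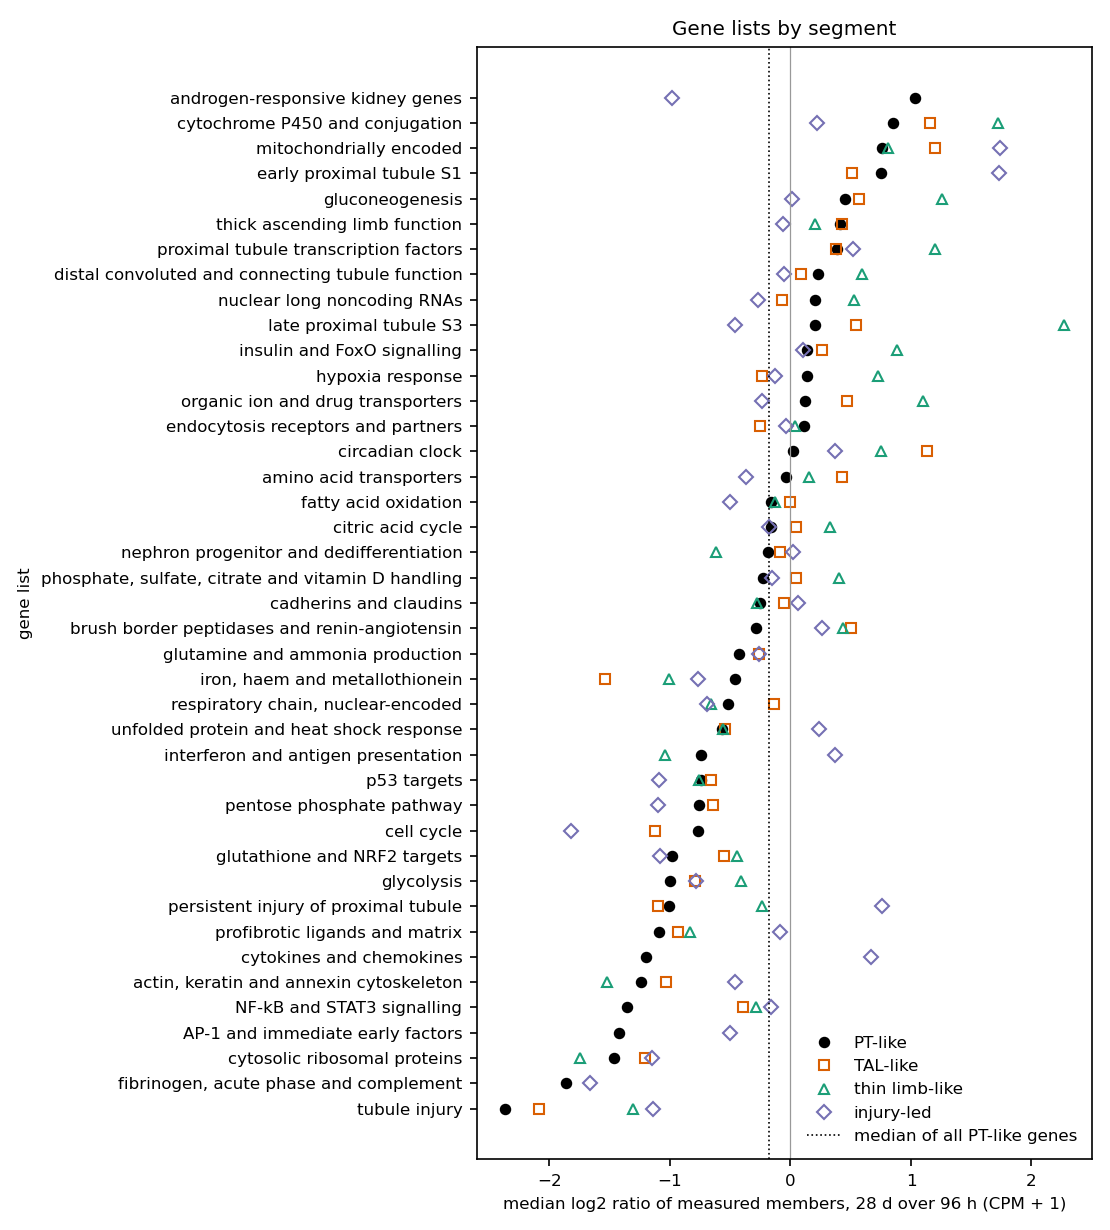
Median log2 ratio (28 d over 96 h, CPM + 1) of the measured members of each gene list with at least 3 measured members, in 4 groups of nuclei with 1 library per time. The dotted line is the median of all measured PT-like genes, -0.18. Tubule injury (-2.37 in PT-like nuclei) and ribosomal protein genes (-1.46) lie to the left in all 4 groups, and the persistent injury list lies to the right (0.76) only among the points for injury-led nuclei.

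In TAL-like nuclei, the genes of salt transport and its regulation were higher at 28 d and the injury genes lower. Of 3851 measured genes 381 (9.89%) rose and 423 (11%) fell. Of 19 measured genes of TAL function 7 rose and none fell, and the list summed to 11609 CPM at 96 h and 23653 CPM at 28 d, with 32203 CPM without injury. Egf, epidermal growth factor, which the TAL secretes, was at 681 CPM at 96 h (564 to 815) and 5622 CPM at 28 d (5291 to 5968), 8.26-fold higher (6.82 to 10.1), with 7627 CPM without injury. Slc12a1, the furosemide-sensitive salt transporter, went from 3329 to 8381 CPM, Umod, which encodes uromodulin, from 814 to 2226 CPM, and Casr, the calcium sensor, from 98.1 to 413 CPM. Lcn2, the injury marker NGAL, went from 317 to 31.3 CPM (ratio 0.0988, 0.0348 to 0.229), with 2.45 CPM without injury and 105 CPM at 64 h. Clu, clusterin, went from 819 to 193 CPM and Spp1 was at 1552 and 893 CPM. In all, 5 of 6 injury genes fell. Diaph3, a formin that acts in cell division, had 20 UMIs at 96 h and 0 at 28 d, at least 7.36-fold lower when 0 is set at 3 counts for the library.

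The 2 TAL-like clusters hold different shares of the libraries, so the values were also taken within the cluster led by Lcn2 and Clu, with 367 and 141 nuclei. There, 4 of 6 injury genes fell, and of 17 measured TAL function genes 4 rose and 3 fell, with a log2 ratio of 0.81 for Slc12a1. Slc12a3, the salt transporter of the neighbouring distal convoluted tubule, was at 1800 CPM at 96 h and 559 CPM at 28 d in TAL-like nuclei against 125 CPM without injury, so the class at 96 h held transcripts of both segments. Its direction depended on the class: with classes from marker UMIs its log2 ratio was 1.12, and at finer clustering 1.52.

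In thin limb-like nuclei (116 and 129), 273 of 1930 measured genes (14.1%) rose and 226 (11.7%) fell. Of 13 cytoskeleton genes 7 fell, with S100a6, a calcium-binding protein, going from 1903 to 96.3 CPM and Anxa2 from 476 to 61.3 CPM. In connecting tubule- and intercalated-like nuclei (88 and 145), 576 of 2597 (22.2%) rose and 241 (9.28%) fell. Of their own genes, 1 of 14 distal and connecting tubule genes rose and 2 fell, and 1 of 10 intercalated cell genes fell. Slc8a1, the sodium-calcium exchanger of the connecting tubule, was at 7728 and 8708 CPM and Slc26a4, the pendrin exchanger of intercalated cells, at 580 and 731 CPM. All 3 measured injury genes fell here, with Clu going from 1653 to 140 CPM. Of 17 measured P450 and conjugation genes of the PT 16 rose here, as did 4 of 12 TAL function genes. The summed TAL markers went from 215 to 1197 CPM and the PT markers from 2705 to 13502 CPM.

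The injury-led nuclei, 226 at 96 h and 258 at 28 d, were clustered on variable genes like all others and set apart because injury genes led their cluster. The levels of their leading genes are therefore only a description. Of 5380 measured genes 406 (7.55%) rose and 853 (15.9%) fell, and the median log2 ratio was -0.11. Acute injury and growth genes fell here too. Brca2 went from 940 to 57.2 CPM, Gdf15 from 305 to 59.9 CPM, Ezh2, a chromatin silencer of growing cells, from 177 to 46.3 CPM, and Fth1 from 2406 to 275 CPM. Taken over all injury-led nuclei, other genes stayed within 2-fold. Spp1 was at 1099 CPM at 96 h and 928 CPM at 28 d (ratio 0.845, 0.715 to 0.998), where the PT-like ratio was 0.217. None of 13 NF-kB and STAT3 genes fell or rose, and Nfkb1 was at 274 and 414 CPM. Il34 was at 684 and 623 CPM.

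The injury-led class did not hold the same kinds of nuclei at both times. At resolution 2.0, 162 of its 226 nuclei at 96 h lay in a cluster led by Krt20 and Havcr1, with 7 of 258 at 28 d. Of the rest, 49 and 245 lay in a cluster led by Vcam1 and Kcnip4, an alternative chosen after seeing the data. The marker lists named that finer cluster parietal epithelium (score 2.0, proximal tubule next at 1.4), with the marker Ncam1 among its leading genes. Parietal epithelium was also the best score of the whole injury-led cluster (1.91). Within the 49 and 245 nuclei, Spp1 was at 1919 and 898 CPM (ratio 0.468, 0.358 to 0.619) and Il34 at 1432 and 642 CPM (ratio 0.448, 0.328 to 0.622), so both fell there. Fth1 fell there too, from 2291 to 245 CPM, and Brca2 from 258 to 60.4 CPM, whereas Gdf15 had 3 and 21 UMIs (ratio 0.703, 0.210 to 3.68).

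The list of persistent injury, genes known from tubule cells that fail to recover, summed to 2834 CPM at 96 h and 5368 CPM at 28 d in injury-led nuclei, against 1446 and 903 CPM in PT-like nuclei. In the injury-led nuclei without injury the list summed to 6078 CPM, above both injured libraries. Of its 8 measured members 2 rose and none fell in injury-led nuclei, where 7.55% of all measured genes rose and 15.9% fell. The list holds Vcam1 and Csf1, which are among the genes that lead the cluster, so these sums are a description. Kcnip4, a potassium channel partner, went from 667 to 2278 CPM (ratio 3.42, 2.87 to 4.09), where the PT-like ratio was 0.588 (0.532 to 0.650). Ccl2, which recruits monocytes, went from 17.7 to 112 CPM (ratio 6.32, 2.29 to 24.3). Dcdc2a and Sema5a gave ratios of 1.90 (1.31 to 2.81) and 1.79 (1.51 to 2.13). Edn1, the vasoconstrictor endothelin-1, rose 2.88-fold (1.52 to 5.90). Within the 49 and 245 nuclei of the finer cluster, the ratio was 1.37 for Ccl2 (0.438 to 6.93), 1.81 for Edn1 (0.587 to 9.04) and 5.68 for Dcdc2a (1.54 to 47.4), and Sema5a was at 1060 and 1485 CPM. Kcnip4, which leads that cluster, had 9 UMIs at 96 h and 783 at 28 d. Over all injury-led nuclei 6 of 8 S1 genes rose, among them Gatm (17.7 to 117 CPM) and Slc5a12 (48.6 to 261 CPM). Within the finer cluster Gatm, Slc6a19 and Slc5a12 had 1 UMI each at 96 h. Their ratios there were 3.92 (0.663 to 159), 3.62 (0.609 to 147) and 9.34 (1.64 to 373), too wide for Gatm and Slc6a19 to show a direction. The 56 injury-led nuclei without injury had 3429 CPM of Kcnip4, above both injured libraries. The 16 PT markers summed to 6052 and 9201 CPM in injury-led nuclei, and the part of free or shared PT transcripts in the S1 rise was not tested.

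**Figure D4:**
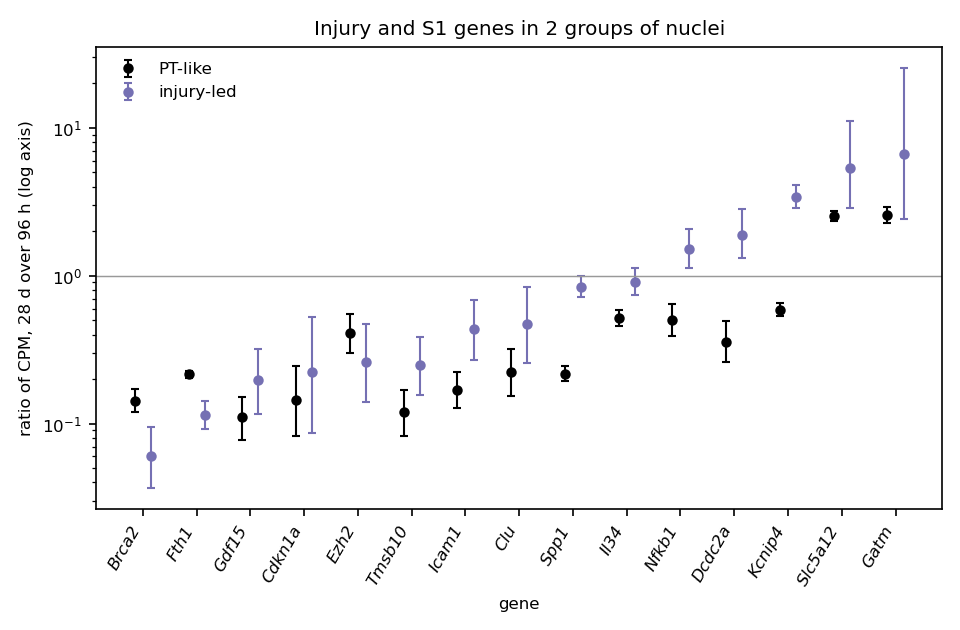
Ratio of CPM at 28 d over 96 h (log axis) of injury, iron, cytokine and S1 genes in PT-like and injury-led nuclei, with exact 95% intervals from counts and 1 library per time. Brca2 and Gdf15 lie under 1 in both groups, whereas Spp1 (0.217 and 0.845) and Kcnip4 (0.588 and 3.42) lie apart. The injury-led class was mostly one finer cluster at 96 h (162 of 226 nuclei) and another at 28 d (245 of 258), and within the latter Spp1 had a ratio of 0.468.

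Some transcripts moved in several groups of nuclei. Cytosolic ribosomal protein genes fell in PT-like (19 of 20), TAL-like (9 of 16), thin limb-like (6 of 7) and injury-led nuclei (14 of 19), with 1 of 3 in connecting tubule- and intercalated-like nuclei, and their sum in PT-like nuclei went from 3493 to 1197 CPM, with 1401 CPM without injury. With TMM scaling 14 of the 20 fell in PT-like nuclei. Mitochondrially encoded transcripts, which are made outside the nucleus, summed to 486 and 864 CPM in PT-like nuclei, 560 and 1348 CPM in TAL-like nuclei and 331 and 906 CPM in injury-led nuclei, and 1 of 5 measured rose in connecting tubule- and intercalated-like nuclei. Mrap2, an accessory protein of melanocortin receptors, went from 477 to 32.3 CPM in PT-like nuclei (32.0 without injury, 349 at 64 h), from 704 to 41.8 CPM in TAL-like nuclei, and from 37 UMIs to 0 in thin limb-like nuclei. Mid1, an X-linked ubiquitin ligase gene at the pseudoautosomal boundary, was at 122 and 1483 CPM in PT-like nuclei, at 133 and 1886 CPM in TAL-like nuclei and at 129 and 1685 CPM in connecting tubule- and intercalated-like nuclei. Its PT-like level was 128 CPM without injury and 2377 CPM at 64 h, so it was low without injury and at 96 h and high at 64 h and 28 d. Its level did not follow the order of the times. Gm26825, a gene model, had 0 UMIs in PT-like nuclei at 96 h and 74 at 28 d, at least 13.2-fold higher with 0 set at 3 counts, and was at 0.204 CPM without injury.

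**Figure D5:**
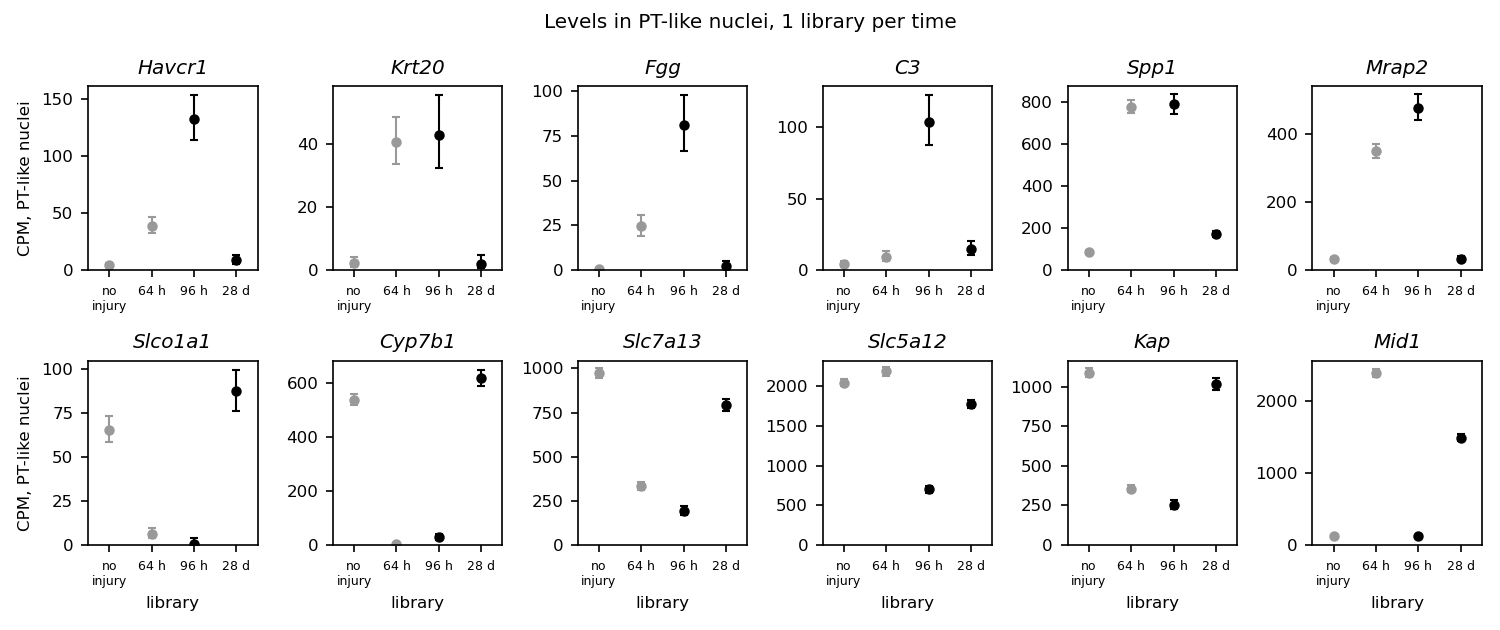
Level (CPM, axes from 0) of 12 genes in PT-like nuclei of the 4 GFP-positive libraries, 1 library per time, with exact 95% Poisson bars. The 96 h and 28 d points are black. At 28 d Krt20 and Mrap2 are at their uninjured level and Havcr1, Fgg and C3 (8.87, 2.42 and 14.9 CPM) still above it, Slco1a1 and Cyp7b1 are above it and Kap just below it, and Mid1 is high at 64 h and 28 d only.

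Most genes that rose or fell in PT-like nuclei were at 28 d within 2-fold of the library without injury. Of the 1033 genes that fell in PT-like nuclei, 920 were at 28 d within 2-fold of the library without injury, 92 were still at least 2-fold above it and 21 at most 0.5 of it. Of the 297 that rose, 272 were within 2-fold, 20 above and 5 below. Among listed genes that fell and stayed above were Clu (18.1 CPM at 28 d, 5.30 without injury), Cebpb, an acute-phase factor (17.7 and 4.69 CPM), Jund (22.2 and 4.69 CPM) and Csf1 (9.27 and 3.26 CPM). Hsph1, a heat shock protein, rose past its uninjured level, from 70.8 to 228 CPM against 91.8 CPM. Six2, the nephron progenitor factor for which the Six2-TGC transgene is named, was at 173 CPM at 96 h, 93.1 CPM at 28 d and 21.6 CPM without injury. These counts take the 28 d library on both sides, and they describe where its values lie. The share of all measured genes within 2-fold is not given here. The counts therefore do not show whether genes that moved lie nearer the uninjured level than other genes.

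The genes that lead PT-like nuclei in each direction lie on many chromosomes. In the GRCm38.p6 (mm10) annotation of RefSeq, Slco1a1 is at chr6:141907281-141946962, Cyp7b1 at chr3:18071944-18243890, Havcr1 at chr11:46739822-46779578 and Mid1 at chrX:169685199-169990798, while Fgg (chr3:83007724-83015056) and Fgb (chr3:83042246-83049863) are neighbours in the fibrinogen cluster. The RefSeq promoters, 250 bases before the start site, of the first 2 leading genes in each direction with an entry are shown to let the leading risers and fallers be compared. Sequences run 5' to 3' on the strand of the gene, and capitals mark a match to any of 6 motifs: TGANTCA (AP-1), CAAAGTCCA (HNF4A), TTCCNGGAA (STAT), CCAAT, and the HNF1 and NF-kB motifs, whose letters are the capitals in the HNF1 and NF-kB matches printed further on, with any base at the centre of HNF1. Each was searched on both strands.
Slco1a1 (rose, chr6:141946963-141947212, minus strand): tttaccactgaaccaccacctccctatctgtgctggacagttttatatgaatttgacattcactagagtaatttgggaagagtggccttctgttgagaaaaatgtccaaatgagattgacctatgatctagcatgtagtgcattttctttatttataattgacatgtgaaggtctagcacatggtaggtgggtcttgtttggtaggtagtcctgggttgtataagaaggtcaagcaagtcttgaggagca
Mid1 (rose, chrX:169684949-169685198, plus strand): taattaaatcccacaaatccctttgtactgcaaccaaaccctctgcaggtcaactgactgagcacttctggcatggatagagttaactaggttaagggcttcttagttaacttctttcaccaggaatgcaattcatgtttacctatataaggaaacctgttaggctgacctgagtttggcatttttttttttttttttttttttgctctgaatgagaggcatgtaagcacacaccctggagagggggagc
Fgg (fell, chr3:83007474-83007723, plus strand): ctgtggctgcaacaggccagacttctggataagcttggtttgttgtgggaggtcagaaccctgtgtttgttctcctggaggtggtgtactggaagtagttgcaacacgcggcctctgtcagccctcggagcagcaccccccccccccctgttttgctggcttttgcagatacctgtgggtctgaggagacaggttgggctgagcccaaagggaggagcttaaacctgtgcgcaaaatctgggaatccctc
Chst8 (fell, chr7:34812712-34812961, minus strand): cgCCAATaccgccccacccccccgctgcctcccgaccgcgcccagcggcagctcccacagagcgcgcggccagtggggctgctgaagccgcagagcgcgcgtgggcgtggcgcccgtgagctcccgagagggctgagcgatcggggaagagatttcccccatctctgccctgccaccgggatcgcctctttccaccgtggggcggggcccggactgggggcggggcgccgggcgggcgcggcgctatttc
Of these 4 windows, Chst8, a sulfotransferase gene, holds 1 CCAAT, and the other three hold none of these letters.

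The motifs were then counted, as a description, in the RefSeq promoters (250 bases before to 50 after the start) of the 100 genes that lead each direction in PT-like nuclei. Promoters were found for 69 risers, 67 fallers and 6264 of the 8145 measured genes. The HNF4A letters were in 2 of 69 riser promoters (2.90%), in 0 of 67 faller promoters and in 0.415% of all measured genes, and 0.477% of the 27025 promoters of the table. The HNF1 letters were in 2 of 69 (2.90%), 1 of 67 (1.49%) and 0.112%. The NF-kB letters were in 0 of 69, 1 of 67 (1.49%) and 0.160%, and the STAT letters in 1 of 69 (1.45%), 2 of 67 (2.99%) and 75 of 6264. AP-1 letters were in 6 of 69 risers (8.70%), 5 of 67 fallers (7.46%) and 4.53% of measured genes, and CCAAT in 37.7%, 35.8% and 37.9%. The rare matches that lie before the start site are shown with 25 bases on each side where they fit. They are printed because they join a sequence to a gene that moved. Matches on 1 chromosome were left out of this display, and the STAT match among the risers is not shown.
Aspdh (rose, HNF4A, chr7:44465358-44465416, plus strand): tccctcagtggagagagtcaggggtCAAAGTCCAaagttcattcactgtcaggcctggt
Ptpn22 (rose, HNF4A, chr3:103859752-103859794, plus strand): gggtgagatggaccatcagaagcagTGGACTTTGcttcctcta
Akr1c19 (rose, HNF1, chr13:4233604-4233664, plus strand): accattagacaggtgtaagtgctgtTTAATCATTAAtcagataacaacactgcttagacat
Gm4450 (rose, HNF1, chr3:98457142-98457202, minus strand): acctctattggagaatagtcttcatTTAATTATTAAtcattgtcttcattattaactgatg
Gc (fell, HNF1, chr5:89457914-89457974, minus strand): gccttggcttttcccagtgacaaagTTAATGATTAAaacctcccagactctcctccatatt
Csf1 (fell, NF-kB, chr3:107760589-107760648, minus strand): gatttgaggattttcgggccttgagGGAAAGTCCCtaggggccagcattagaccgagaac
Guca2b (fell, STAT, chr4:119659010-119659068, minus strand): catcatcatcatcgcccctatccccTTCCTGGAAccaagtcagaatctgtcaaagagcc
Icam1 (fell, STAT, chr9:21015873-21015931, plus strand): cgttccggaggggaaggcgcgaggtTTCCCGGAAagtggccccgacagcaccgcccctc
Aspdh and Akr1c19 encode enzymes of nicotinamide cofactor-dependent metabolism and rose 3.80-fold (2.37 to 6.41) and 4.38-fold (2.83 to 7.07). Gc, which encodes the vitamin D binding protein, fell from 70.8 to 14.1 CPM although its promoter holds the HNF1 letters. Guca2b, the peptide hormone uroguanylin, fell from 655 to 157 CPM. Csf1 and Icam1, which fell, are the genes described above with the inflammatory lists. A match names letters in a window and not a bound site.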

How the data were processed

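Nuclei were sorted for DNA stain and GFP and run on 10x Genomics Chromium v2 3' chemistry, 4000 nuclei loaded per lane, per the labels' protocols. The deposited matrices hold UMI counts per gene and nucleus, made by the authors on mm10 (tools named: Cell Ranger 2.1, STAR 2.5.1b, bcl2fastq 2.17), per the submitters' processing notes, with a pre-mRNA reference, per the series' design text. Each of the 5 groups was 1 library, so no test was run and intervals cover counting error only.

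Nuclei of all 5 libraries with at least 200 genes were normalised to 10000 UMIs, log-transformed and clustered (scanpy 1.11.5, scikit-learn 1.9.0, leidenalg 0.10.2, 2000 variable genes, 30 components, 15 neighbours, resolution 1). Clusters were named from 15 marker lists. A cluster was kept apart if its 10 leading genes held 3 or more injury genes and no marker of its best-scoring class. The TAL-like cluster led by Lcn2 and Clu, with 3 injury genes and 1 TAL marker there, kept its name. A deep cluster of 2 classes stayed unnamed. UMIs were then summed per library and class. Log2 ratios used a pseudocount of 1 CPM, and intervals of ratios and shares were exact conditional and Clopper-Pearson intervals (Python 3.11.15, scipy 1.17.1). The floor for 0 counts was 3. Totals per library were 1856284 (96 h) and 3767530 (28 d) UMIs, and a count of 0 allows up to 1.62 and 0.796 CPM. The ratio, its interval and the call were tested on simulated data. TMM factors came from edgeR 4.0.16 in R 4.3.3. The alternatives were scaling, weighting of nuclei, depth, minimum counts, fold limit, pseudocount and the definition of classes. Promoters and gene positions came from RefSeq tables (GRCm38.p6).

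The genes named are the 12 with the highest lower bound and the 12 with the lowest upper bound of the ratio in all nuclei and in PT-like nuclei, 6 and 6 in TAL-like nuclei, and members of the 42 gene lists. The members and lists were chosen with earlier results of these data known, and genes named with a promoter match were chosen because they hold the letters.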

Additional observations from a re-analysis of the deposited data

How the results depend on the processing

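No paired analysis was possible because each group is 1 library. In all nuclei 357 genes rose and 1145 fell. The counts were 662 and 663 with TMM scaling, 567 and 1726 at a minimum of 20 UMIs, 193 and 436 at 200 UMIs, 2651 and 4355 with no minimum beyond 1 UMI, and 1029 and 2665 at a 1.5-fold limit, and 654 fell after thinning to 300 UMIs. In PT-like nuclei the same alternatives gave 642 and 553, 447 and 1660, 179 and 352, 2554 and 3992, and 849 and 2279, with 598 falling after thinning, 659 at resolution 0.5 and 674 without the largest 96 h cluster. In TAL-like nuclei 381 rose and 423 fell. Thinning gave 201 and 175, resolution 0.5 gave 671 risers, and 175, 106 and 216 fell among nuclei with at least 400 genes, at resolution 2.0 and with classes from marker UMIs. PT-like shares at 96 h and 28 d were 16.1% and 63.1% at resolution 0.5, 68.6% and 65.8% at 2.0, 76.6% and 84.3% with marker UMIs, 76.0% and 70.4% from 400 genes, and 81.1% and 75.5% with injury-led nuclei added. TAL-like shares were 3.06% and 5.27% at resolution 2.0, 3.80% and 5.79% from 400 genes, 4.65% at 96 h with marker UMIs, and 10.4% at 28 d at resolution 0.5. Injury-led shares were 65.1% and 11.9% at resolution 0.5, 20.2% and 3.49% at 2.0, and 13.8% at 96 h from 400 genes. At 2.0 the cluster led by Gm17268 and Vcam1 (50 and 285 nuclei) was named parietal epithelium and left out of the injury-led share. Distal convoluted tubule-like shares were 0% at both times at resolution 0.5, 0% at 96 h from 400 genes and 2.06% at 96 h with marker UMIs. The median log2 ratio of the circadian clock list in TAL-like nuclei was 1.13 and became -0.07 at resolution 0.5. The log2 ratio of Slc12a3 in TAL-like nuclei was -1.69 and became 1.52 at resolution 2.0 and 1.12 with marker UMIs. The cause of these changes was not tested, except that fewer UMIs or nuclei, another limit and another class boundary change the genes or nuclei counted by construction. The leading genes and, apart from Slc12a3, the list members past 2-fold that are named for PT-like and TAL-like nuclei kept their direction under each alternative run for them. This does not hold for all list members past 2-fold. Of 95 such members in TAL-like nuclei, 11 turned at resolution 2.0, 9 with marker UMIs, 6 from 400 genes and 2 at resolution 0.5. Of the 159 in PT-like nuclei, 3 turned at resolution 0.5 and 1 without the largest 96 h cluster. TMM scaling could not have turned any of these genes, because it adds at most 0.31 to a log2 ratio. The other class definitions for TAL-like nuclei and the removal of single clusters were chosen after seeing the data. Genes named for thin limb-like and connecting tubule- and intercalated-like nuclei were not run under alternatives, and those of injury-led nuclei only within the finer cluster. The intercalated cell list in PT-like nuclei had under 3 measured members and got no median. At 96 h the shallower library limits low genes: in TAL-like nuclei a count of 0 allows up to 17.3 CPM.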

Other observations

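Genes outside the lists also lead the PT-like ratios, given here as values. Ctnna2, an alpha-catenin, went from 14.3 to 160 CPM (11.2-fold, 7.05 to 18.7), with 252 CPM without injury. Cacnb4, a calcium channel subunit, went from 25.6 to 183 CPM, with 108 CPM without injury. Lpl, lipoprotein lipase, had 3 UMIs at 96 h and 78 at 28 d (2.26 and 31.4 CPM, ratio 13.9, 4.59 to 69.0), and stayed below its 201 CPM without injury. The noncoding Snhg11 went from 10.5 to 87.9 CPM and 4930533I22Rik from 4.52 to 73.0 CPM. Among the fallers, Chst8, a sulfotransferase, went from 67.8 to 2.02 CPM, Snx31, a sorting nexin, from 150 to 10.1 CPM, Kirrel3, an adhesion protein, from 109 to 8.06 CPM, Lpcat2, a phospholipid acyltransferase, from 47.4 to 2.42 CPM, and Cbr1, a carbonyl reductase, from 59.5 to 4.43 CPM. In all nuclei, Adgrl4, an endothelial receptor, went from 3 UMIs to 108 UMIs. Endothelium-like nuclei went from 2 to 65, of which 53 lay in the deep cluster with a second PT score. By their own marker UMIs, endothelium-like nuclei numbered 5 and 8. The part of such nuclei in the rise of Adgrl4 was not tested. Dkk2, a Wnt modulator, went from 5.93 to 68.7 CPM in all nuclei, with 63.6 CPM without injury.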
